A study of Homo sapiens with 12 samples.

Results

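The 3 mature miRNAs described here, hsa-miR-221-3p, hsa-miR-221-5p and hsa-miR-222-3p, are products of the hairpins MIR221 and MIR222, which lie in the lncRNA gene MIR222HG. They were chosen by name and are 3 of the 2652 mature miRNAs in the count tables. The study asked how inhibition of splicing affects miRNA synthesis in Huh7 cells, a human hepatocellular carcinoma line, using SLAMseq. In this method newly made RNA takes up 4-thiouridine (4SU), which is alkylated and then read as a T>C conversion, so that the share of T positions converted follows the share of recently made RNA. Control cells received DMSO without 4SU for 4 h. DMSO cells received DMSO together with 500 µM 4SU for 4 h, and PlaB cells received pladienolide B (PlaB), an inhibitor of the splicing factor SF3B1, together with 500 µM 4SU for 4 h. For PlaB the sample labels give 500 µM, whereas the study's methods give 1 µM as the default concentration and state no other for SLAMseq. All cells were of the same line, total RNA of all 3 conditions was alkylated, and no condition combined PlaB with the absence of 4SU. Each condition was present once in each of 4 independent experiments, which gave 12 libraries.

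A miRNA gene is transcribed as a long primary transcript, from which the Microprocessor cuts a hairpin that Dicer trims to a duplex of 2 strands. Argonaute usually keeps one strand, the guide, and the other strand, the passenger, is lost soon afterwards. In MIR221 and MIR222 the 3p strand is the guide. miR-221 and miR-222 are known to repress the cell cycle inhibitor CDKN1B and are often raised in liver cancer.

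Mature sequences from RefSeq (GRCh38.p14) were found for 2 of the 3 miRNAs and for miR-222-5p, the passenger strand of MIR222. They are shown 5′ to 3′ because the seed defines the targets and because each U is a position at which 4SU can be read. Capitals mark the seed (bases 2 to 8).
miR-221-3p: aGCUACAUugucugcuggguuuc
miR-222-3p: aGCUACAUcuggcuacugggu
miR-222-5p: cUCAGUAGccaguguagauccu
On the minus strand they lie at chrX:45746180-45746202 (miR-221-3p), chrX:45747036-45747056 (miR-222-3p) and chrX:45747073-45747094 (miR-222-5p).

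The guide strands miR-221-3p and miR-222-3p begin with the same 8 bases. No other of the 2370 mature miRNAs in the RefSeq table has this seed. Compared position by position without gaps, 11 of the first 21 positions are identical. This count scores shifted bases as different, and the stretch cugggu occurs in both strands at shifted positions. Of the reads counted in the 12 libraries, 2 of 27719 reads of miR-221-3p and 6 of 51813 reads of miR-222-3p were counted as mapping to more than 1 place, and none of 2553 reads of miR-221-5p. miR-221-3p has 9 T positions, miR-221-5p has 7 and miR-222-3p has 6.

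Both hairpins are on the minus strand of chromosome X in GRCh38. MIR222 is at chrX:45747015-45747124 and MIR221 at chrX:45746157-45746266, with 748 bases between them. In GENCODE version 44 both are in the intron of transcript MIR222HG-201, and the ends nearest the transcription start site are 23150 bases (MIR222) and 24008 bases (MIR221) downstream of it. The exon of another transcript, MIR222HG-203, overlaps MIR221 by 24 bases and its mature 3p strand by 1 base, so MIR221 is not intronic with respect to every annotated transcript.

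The libraries held 1522210 to 3880241 reads counted on miRNAs, with the 2 deepest libraries, DMSO replicates 1 and 2, combined from several sequencing runs. The liver miRNA miR-122-5p was the 3rd most abundant miRNA in every library. The T>C conversion rate over all miRNAs was 0.0225% to 0.0319% in Control, 0.246% to 0.290% in DMSO and 0.135% to 0.171% in PlaB. Because RNA was taken from whole cultures, a change in every cell and a change in some of the cells cannot be told apart.

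In the amount of RNA present, neither guide strand passed the test in any comparison. miR-222-3p, the most abundant of the 3 miRNAs, had 1836, 2256, 2298 and 1680.4 CPM (its reads per 1000000 reads counted on miRNAs) in Control experiments 1 to 4. In DMSO it had 1828, 2127, 2169.6 and 1570.1 CPM, and in PlaB 2016, 2101, 1968 and 1701 CPM. The conditions overlapped, and in each condition experiment 4 gave the lowest value. On the log2 scale the ratio of DMSO to Control was -0.066 (edgeR adjusted p = 0.930, SE 0.142) and that of PlaB against DMSO was 0.068 (edgeR adjusted p = 0.979, SE 0.142).

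miR-221-3p was less abundant than miR-222-3p in every library. Its CPM values were 854, 1034, 1003 and 959.7 in Control, 1108, 1245, 1209 and 862 in DMSO, and 999, 1102, 993 and 993 in PlaB. In 3 of the 4 experiments DMSO was above Control, but the conditions overlapped. The log2 ratio was 0.20 for DMSO against Control (edgeR adjusted p = 0.525, SE 0.125), with an approximate 95% interval of -0.044 to 0.45. For PlaB against DMSO it was -0.062 (edgeR adjusted p = 0.979, SE 0.125), with an interval of -0.31 to 0.18. The ratio of miR-222-3p to miR-221-3p within a library averaged 2.09 ± 0.236 (SD, n = 4) over the Control libraries, 1.74 ± 0.0794 over DMSO and 1.91 ± 0.137 over PlaB. None of these differences passed a two-sided exact permutation test of 4 against 4 libraries (p = 0.0857 for DMSO against Control, 0.114 for PlaB against DMSO, 0.257 for PlaB against Control).

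The passenger strand miR-221-5p behaved differently, with fewer reads in both conditions that contained 4SU. It had 131, 148, 142 and 115 CPM in Control, 80.9, 96.5, 68.0 and 71.6 CPM in DMSO, and 102, 75.3, 59.0 and 73.3 CPM in PlaB. Every DMSO and every PlaB library was below every Control library, whereas DMSO and PlaB overlapped. Such an order, lower in all 4 libraries, was seen for 8.94% of the 537 miRNAs tested in DMSO and for 8.75% in PlaB. The mean fell from 134 ± 14.8 CPM in Control to 79.2 ± 12.7 CPM in DMSO and was 77.5 ± 18.2 CPM in PlaB (SD, n = 4). In edgeR's test the log2 ratio against Control was -0.76 in DMSO (SE 0.186, adjusted p = 0.0213) and -0.74 in PlaB (SE 0.188, adjusted p = 0.0228). Of the 537 miRNAs tested, 5.21% were called lower in DMSO and 5.96% in PlaB, and these comparisons share the Control libraries. Between PlaB and DMSO the estimate was 0.016 (edgeR adjusted p = 0.999, SE 0.187, interval -0.35 to 0.38). No miRNA (0.0%) was called for PlaB against DMSO in this test, in which 31 had an unadjusted p under 0.05, and DESeq2 called 6.

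No fit found the opposite direction, but the call in DMSO was lost when any one of Control replicates 2 and 3 and DMSO replicates 1, 3 and 4 was left out, and that in PlaB when the same was done with any one of Control replicates 2 and 3 and PlaB replicates 2, 3 and 4 (adjusted p up to 0.0777 in edgeR's test). In the fits that left out 1 library the log2 value stayed between -0.89 and -0.63. Without DMSO replicates 1 and 2 together the adjusted p in DMSO was 0.0689 in edgeR's test.

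**Figure D1:**
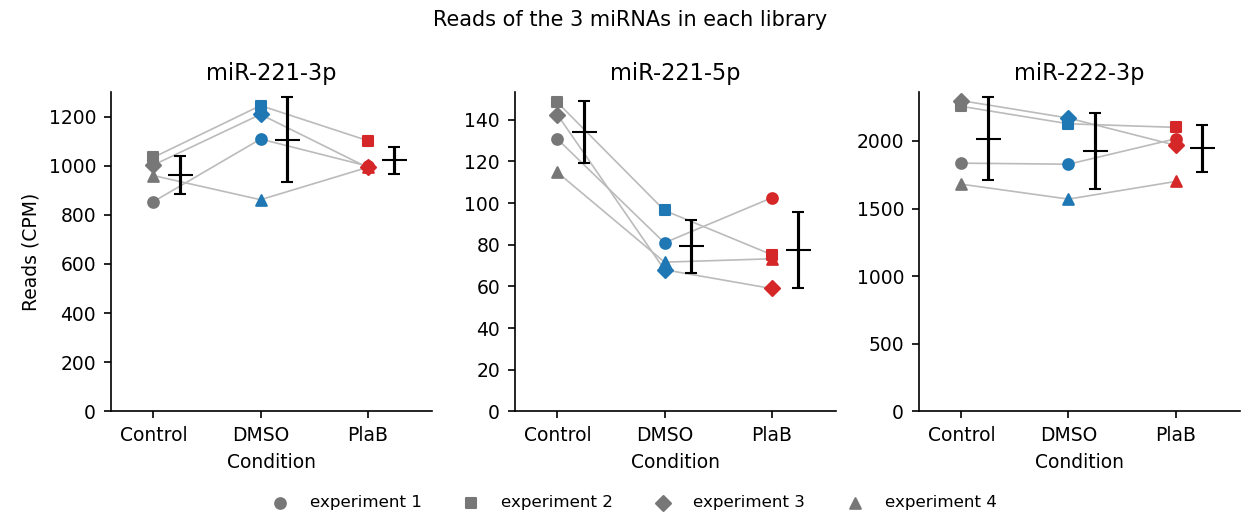
Reads of miR-221-3p, miR-221-5p and miR-222-3p in CPM (vertical axes, starting at 0 and differing between panels) in the Control, DMSO and PlaB libraries. Points are single libraries, symbols and grey lines mark the experiment, and black bars show mean and SD of 4 libraries. The miR-221-5p values of DMSO and PlaB, at most 102 CPM, are all below the Control values of at least 115 CPM, while those of both 3p strands overlap.

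The passenger was also set against the guide of the same hairpin in each library. The number of miR-221-5p reads per miR-221-3p read was 0.153, 0.143, 0.142 and 0.120 in Control. It was 0.0730, 0.0775, 0.0562 and 0.0831 in DMSO and 0.103, 0.0683, 0.0594 and 0.0738 in PlaB. All 8 libraries with 4SU were below all 4 Control libraries. Two-sided exact permutation tests gave p = 0.0286 for DMSO and for PlaB against Control, the smallest value that 4 against 4 libraries allow, and an adjusted p of 0.10 over the 7 ratios compared. Taken as 4 experiments, each with a lower ratio in DMSO and in PlaB, exact sign flips gave 0.125, the smallest p for 4 pairs.

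The other passenger strand, miR-222-5p, was near the limit of detection, with 96 reads in Control, 53 in DMSO and 9 in PlaB over 4 libraries each. It averaged 11.5 ± 3.57 CPM (SD, n = 4) over the Control libraries, 3.99 ± 3.18 CPM over DMSO and 1.26 ± 1.54 CPM over PlaB. The difference passed the threshold for PlaB against Control (log2 ratio -3.07 with SE 0.820, edgeR adjusted p = 0.0323) and not for DMSO against Control (-1.46, SE 0.686, edgeR adjusted p = 0.297). Its T>C conversions numbered 0 in Control, 20 in DMSO and 4 in PlaB, at 392, 246 and 45 covered T positions, and the difference of DMSO from Control passed the threshold (edgeR adjusted p = 0.0134) with conversions in 2 of the 4 DMSO libraries. PlaB against Control also passed (log2 ratio 5.46, edgeR adjusted p = 0.0165), from 9 reads, and PlaB against DMSO did not (log2 ratio 0.76 with SE 1.69, edgeR adjusted p = 1.0).

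Over all hairpins with both strands tested, lower reads of the less abundant strand in DMSO were common. In 90 of 132 hairpins that strand had the lower log2 ratio of DMSO against Control, with a median of -0.17 against 0.057 for the more abundant strand. The less abundant strand was called lower for 17 hairpins and the more abundant one for 1. miR-221-5p had the 33rd lowest of the 132 values. These counts are a description, as the strands were ordered by their own reads.

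In DMSO all 3 miRNAs were called higher in T>C conversion than in Control, as were 32.4% of the 537 miRNAs tested. For miR-221-3p this call did not hold in every fit, and in PlaB none of the 3 passed the threshold against Control. The passenger miR-221-5p had the highest mean rate in DMSO, followed by the guides miR-222-3p and miR-221-3p. According to the study, synthesis rates of different miRNAs cannot be compared directly with this design, and U content also influences labelling.

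For miR-221-5p the rate in DMSO was 1.60%, 1.31%, 3.21% and 1.32% in experiments 1 to 4. In Control it was 0.0403% in experiment 2, from 1 conversion, and 0 in the other 3 libraries, where a count of 0 allows up to 0.197%, 0.166% and 0.156%. The conditions did not overlap, as was the case for 27.7% of the miRNAs tested. Over the 4 libraries there were 108 conversions at 6350 covered T positions in DMSO and 1 at 7727 in Control. The ratio of these pooled rates was 131, with an exact 95% counting interval of 23.1 to 5238, and edgeR's test gave an adjusted p of 1.31e-07. In DMSO, 80 of 909 miR-221-5p reads carried a T>C conversion, which is 8.80% (95% Wilson interval 7.13 to 10.8). Its mean rate of 1.86% ± 0.909 (SD, n = 4) was the 43rd highest of the 537 miRNAs, whose median was 0.111%.

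miR-222-3p was labelled more weakly and more evenly. Its rate was 0.230%, 0.268%, 0.193% and 0.275% in DMSO against 0.0436%, 0.0216%, 0.0601% and 0.0457% in Control, without overlap. There were 312 conversions in DMSO and 41 in Control, and the log2 ratio of the rate was 2.50 (edgeR adjusted p = 3.13e-07, SE 0.455). At 0.242% ± 0.0379 (SD, n = 4) it ranked 60th among the 158 miRNAs over 100 CPM in every library, whose median was 0.183%.

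miR-221-3p had the lowest rate of the 3, and its labelling was the least certain. The rate was 0.133%, 0.115%, 0.0409% and 0.0922% in DMSO and 0, 0.0271%, 0.0184% and 0.0634% in Control. The DMSO value of experiment 3 was below the Control value of experiment 4, although DMSO was above Control within each of the 4 experiments. With 116 conversions in DMSO and 22 in Control, the log2 ratio was 1.72 (edgeR adjusted p = 0.0334, SE 0.668). With a replicate block, which compares conditions within experiments, the adjusted p was 0.0683 in edgeR's test. The call was also lost in 5 of the 12 fits that left out 1 library (Control replicates 1, 2 and 3 and DMSO replicates 1 and 2), with adjusted p up to 0.126 in edgeR's test, and without DMSO replicates 1 and 2 together (0.462). Permuting the 4 and 4 library rates exactly gave p = 0.0571 (two-sided).

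**Figure D2:**
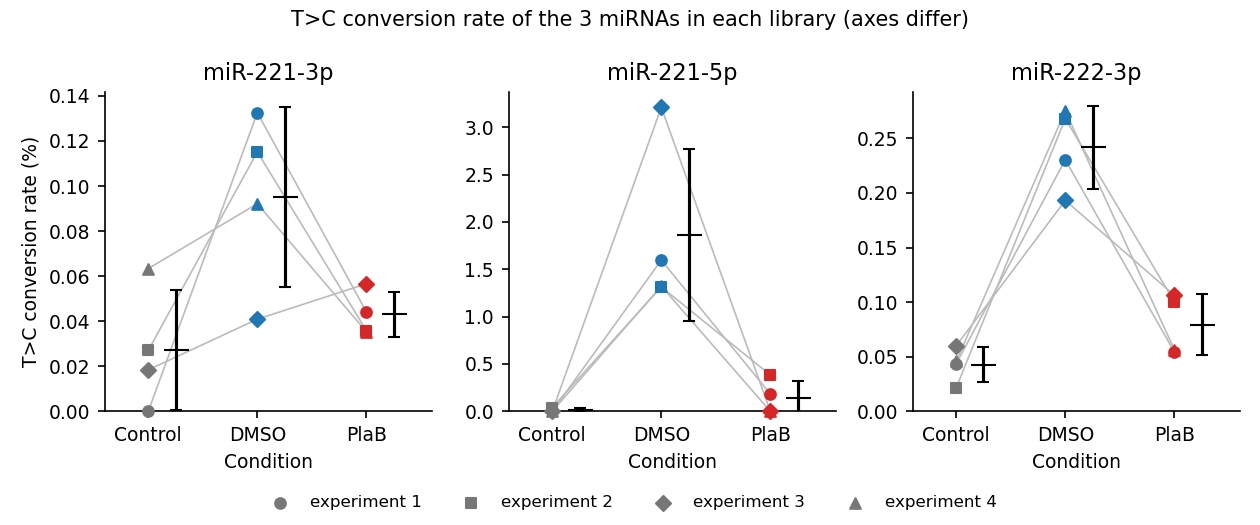
T>C conversion rate in percent of covered T positions (vertical axes, starting at 0 and differing between panels) of the 3 miRNAs in the Control, DMSO and PlaB libraries. Points are single libraries, symbols and grey lines mark the experiment, and black bars show mean and SD of 4 libraries. DMSO lies above both other conditions for miR-221-5p (1.31% to 3.21%) and miR-222-3p (0.193% to 0.275%), whereas DMSO experiment 3 of miR-221-3p (0.0409%) lies among the Control and PlaB values.

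Within DMSO, the rate of miR-221-5p was 12.0, 11.4, 78.5 and 14.4 times that of miR-221-3p in experiments 1 to 4. The strands thus differed in the same direction in 4 of 4 libraries, for which an exact sign-flip test cannot give less than p = 0.125. The highest ratio came from experiment 3, in which miR-221-5p had its highest rate and miR-221-3p its lowest. The rate of miR-222-3p was 1.74, 2.33, 4.72 and 2.99 times that of miR-221-3p, again higher in 4 of 4 libraries (exact sign-flip p = 0.125). Control was not subtracted in these ratios. The mean Control rate was 0.0272% for miR-221-3p, against 0.0952% in DMSO, and 0.0101% for miR-221-5p, against 1.86% in DMSO.

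Counted as reads, the labelled and the total pool of miR-221 differed in strand composition. In Control 12.1% of miR-221 reads were of the 5p strand (1105 of 9113, 95% Wilson interval 11.5 to 12.8) and in DMSO 6.76% (909 of 13438, 6.35 to 7.20). Of the DMSO reads with a T>C conversion, 41.2% were of the 5p strand (80 of 194, 34.5 to 48.3). By experiment this share was 34.6%, 38.5%, 66.7% and 41.7%, each far above the 5.32% to 7.68% among all reads of the same libraries. The 5p strand has fewer T positions than the 3p strand, 7 against 9. In Control only 23 reads of both strands carried a conversion. For MIR222 the corresponding 5p shares in DMSO were 4.90% of T>C reads (19 of 388, 3.16 to 7.52) and 0.245% of all reads (53 of 21611, 0.188 to 0.321). Of these 19 reads, 16 came from DMSO experiment 1 and 3 from experiment 2, so that the MIR222 share rests on 2 libraries.

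A higher rate on the less abundant strand was frequent but not universal. It was found in 69 of the 132 hairpins with both strands tested, with a lower rate in 52 and an equal one in 11, and these counts include strands with few reads. Both strands had at least 1 conversion in DMSO in 84 hairpins, and the median ratio of the less to the more abundant strand among these was 3.72. This selection leaves out ratios of 0, and over the 107 hairpins with a defined ratio the median was 1.32, with quartiles of 0.159 and 7.76. miR-221, with a ratio of mean rates of 19.5, was the 9th highest, and its ratio was 12.5 without DMSO replicate 3. miR-222 had a ratio of 17.2, which was 4.29 without DMSO replicate 1. Control was not subtracted in these ratios either.

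With PlaB, the T>C conversion rate fell for miR-221-5p and miR-222-3p. These were 2 of the 59 miRNAs (11.0% of 537) called lower in PlaB than in DMSO by edgeR's test, which called none higher. miR-221-3p had a lower mean rate but did not pass the threshold.

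Of the 3, the passenger strand had the largest decrease. miR-221-5p had rates of 0.183% and 0.384% in PlaB experiments 1 and 2, and 0 in experiments 3 and 4, where a count of 0 allows up to 0.458% and 0.306%. All were below the lowest DMSO value of 1.31%, an order seen for 16.9% of the miRNAs tested. The mean was 0.142% ± 0.183 in PlaB against 1.86% ± 0.909 in DMSO (SD, n = 4), and there were 6 conversions against 108. The log2 ratio was -3.52 (edgeR adjusted p = 0.00338, SE 0.957), and the pooled rate was 10.7-fold lower in PlaB (exact 95% counting interval 4.75 to 29.8). Among T>C reads of miR-221 in PlaB, 4 of 31 were of the 5p strand (12.9%, 5.13 to 28.9). Of miR-221-3p reads, 0.376% carried a conversion in PlaB and 0.275% in Control. This share thus includes background and does not describe newly made reads alone.

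The rate of miR-222-3p in PlaB was 0.0544%, 0.1003%, 0.106% and 0.0565%, also below every DMSO value. The mean was 0.0794% ± 0.0278 against 0.242% ± 0.0379 in DMSO (SD, n = 4), and conversions numbered 66 against 312. The log2 ratio was -1.59 (edgeR adjusted p = 0.00338, SE 0.432). For both miRNAs the exact permutation test gave p = 0.0286 (two-sided), the smallest possible, with an adjusted p of 0.0643 over 9 such tests. The calls of miR-221-5p and miR-222-3p held in each of the 12 fits that left out 1 library. Without DMSO replicates 1 and 2 together, the libraries combined from several runs, both were lost (adjusted p = 0.0564 for miR-221-5p and 0.0787 for miR-222-3p in edgeR's test), at log2 ratios of -3.83 and -1.54.

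For miR-221-3p the PlaB rates of 0.0442%, 0.0358%, 0.0566% and 0.0353% were below DMSO in 3 of the 4 experiments and above it in experiment 3. The mean was 0.0430% ± 0.00995 in PlaB and 0.0952% ± 0.0398 in DMSO (SD, n = 4), with 27 and 116 conversions. The log2 ratio of -1.16 (edgeR adjusted p = 0.300, SE 0.654) had an approximate 95% interval of -2.44 to 0.12, which includes the estimate for miR-222-3p. The rates of both guides were also compared through their ratio within a library, without subtraction of Control. This ratio of miR-222-3p to miR-221-3p averaged 2.94 ± 1.29 (SD, n = 4) over DMSO and 1.88 ± 0.670 over PlaB, a log2 difference of -0.62 (SE 0.394, two-sided exact permutation p = 0.20). A difference in response between these guides was not detectable at this depth. The ratio cannot decide whether there was one, because it includes background. Mean Control rates were 0.0427% for miR-222-3p and 0.0272% for miR-221-3p.

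Against Control, none of the 3 miRNAs passed the threshold in PlaB, whereas 20.9% of the miRNAs tested were called higher. miR-222-3p was above Control in each of the 4 experiments (66 against 41 conversions, log2 ratio 0.91 with SE 0.473, edgeR adjusted p = 0.191). miR-221-5p was above Control in 2 experiments and at 0 in both conditions in the other 2 (6 against 1 conversion, adjusted p = 0.0942 in the same test). miR-221-3p was above Control in 3 of 4 (27 against 22 conversions, log2 ratio 0.56 with SE 0.709, edgeR adjusted p = 0.923).

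The ratio that the study used, the mean PlaB rate minus Control divided by the mean DMSO rate minus Control, was 0.0711 for miR-221-5p, 0.184 for miR-222-3p and 0.232 for miR-221-3p. Among the 118 miRNAs over 100 CPM in every library that were called higher in DMSO than in Control, the ratio had a median of 0.318 and quartiles of 0.192 and 0.585. miR-222-3p was the 27th lowest and miR-221-3p the 44th lowest of these. miR-221-5p, not among them, was the 28th lowest of all 174 miRNAs called higher in DMSO. By experiment, the ratio of miR-222-3p was 0.0578, 0.319, 0.348 and 0.0468, and that of miR-221-5p 0.115, 0.270, 0 and 0. The ratio of miR-221-3p ranged from -0.97 to 1.70 between experiments, and experiment 3 alone gave more than 1. Single libraries moved these values: that of miR-221-5p was 0.0276 without PlaB replicate 2, and that of miR-221-3p was 0.114 without Control replicate 1, 0.348 without Control replicate 4 and 0.401 without DMSO replicates 1 and 2. Without subtraction of Control the ratios were 0.0762 for miR-221-5p, 0.328 for miR-222-3p and 0.452 for miR-221-3p.

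**Figure D3:**
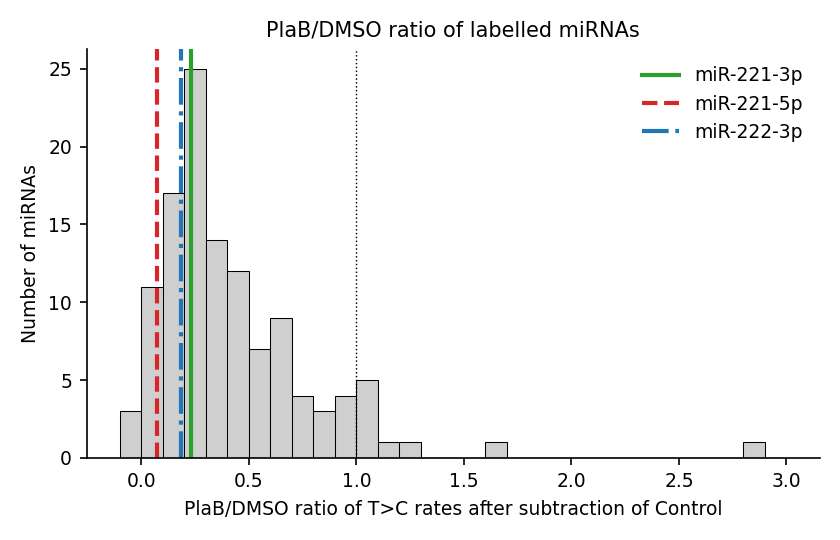
Distribution of the PlaB/DMSO ratio of T>C conversion rates after subtraction of Control (horizontal axis, no unit) over 118 labelled miRNAs over 100 CPM, as number of miRNAs in bins of 0.1 (vertical axis). Vertical lines mark miR-221-5p (0.0711, not among the 118), miR-222-3p (0.184) and miR-221-3p (0.232), all below the median of 0.318. The ratio of miR-221-3p was 0.348 without Control replicate 4 and 0.401 without DMSO replicates 1 and 2. The median was not computed again for these settings. The dotted line marks a ratio of 1.

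miR-221 and miR-222 were set beside 14 other miRNAs that the study's annotation places in introns of lncRNAs. The study kept miRNAs over 100 CPM that were labelled in these libraries, so the rise of these 14 in DMSO is not independent evidence. It also dropped miRNAs whose mean PlaB rate was below Control. The list was thus filtered on DMSO and PlaB rates, and its PlaB against DMSO values are not independent of that choice. All 14 were called higher in DMSO than in Control, with log2 ratios from 2.25 (miR-196a-5p) to 5.52 (miR-503-5p). miR-221-3p (1.72) was below this range, miR-222-3p (2.50) near its lower end and miR-221-5p (6.48) above it. For PlaB against DMSO, 6 of the 14 were called lower and none higher, with a median log2 ratio of -1.35 against -0.42 over all 537 miRNAs. All 14 were over 100 CPM in every library. Among the 118 miRNAs over 100 CPM called higher in DMSO than in Control, also chosen by their DMSO rates, the median was -1.35 too. The share called lower was 42.9% of the 14, 40.7% of these 118 and 11.0% of the 537. The values ran from -3.14 (SE 1.19) for miR-200c-3p, a repressor of epithelial to mesenchymal transition, to 0.042 for miR-374a-3p from the FTX locus. That of miR-221-5p (-3.52, SE 0.957) was lower than any of the 14, but its distance from the lowest was smaller than either SE. Unlike the 14, miR-221-5p was not over 100 CPM in every library. In read counts, 1 of the 14, miR-130a-3p, was called higher in DMSO than in Control (log2 ratio 0.48), as were 0.931% of the 537. None of the 14 was called in the other comparisons.

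The patterns across the 12 libraries were compared between the guides and with the other miRNAs over 100 CPM in every library, as a description. In log2 CPM, Pearson's r between miR-221-3p and miR-222-3p was 0.595, the 15th highest of 157 for miR-221-3p and the 17th for miR-222-3p. After the mean of each condition was subtracted it was 0.780. The miRNAs most like miR-221-3p were miR-30b-5p (0.838), miR-196a-5p (0.798) and miR-32-5p (0.781), and those most like miR-222-3p were miR-29a-3p (0.875), miR-28-3p (0.875) and miR-30c-5p (0.862). In log2 T>C conversion rate, r between the guides was 0.626, the 43rd highest of 157 for miR-221-3p and the 102nd for miR-222-3p. The rates of miR-221-3p rest on 22, 116 and 27 conversions in Control, DMSO and PlaB, and counting error can lower r. The closest to miR-222-3p were miR-20a-5p (0.957), miR-885-5p (0.956) and miR-192-5p (0.954), and to miR-221-3p miR-106b-3p (0.854), miR-101-3p (0.842) and miR-29a-3p (0.824). All these values come from the same 12 libraries and share their depth and the difference between conditions.

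For miR-222-3p, reads with a T>C conversion outnumbered the conversions counted at its T positions in 11 of 12 libraries (511 reads and 419 conversions in all). This was so in no library for miR-221-3p (163 reads, 165 conversions) or miR-221-5p (85 reads, 115 conversions). The rate counts conversions only within the annotated mature sequence. In the RefSeq hairpin, miR-222-3p is followed by the bases cucuga, which hold 2 U, and miR-221-3p by aggcua, which holds 1. Whether the additional reads end beyond the annotated sequence was not tested. Computed from T>C reads in place of conversions, the labelling of miR-222-3p rose by a log2 value of 2.15 over Control, the PlaB difference from DMSO was -1.57, and both passed the threshold (adjusted p = 7.38e-08 and 0.000331 in edgeR's test).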

How the data were processed

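SLAMseq small RNA libraries of Huh7 cells were analysed, 4 per condition, with conditions and replicate numbers from the sample labels. The authors trimmed the reads (Trim Galore), discarded those over 30 bases, and ran SLAM-DUNK against GRCh38 with miRBase coordinates of mature miRNAs. They used no mapping quality filter, so reads with several genomic locations were kept, and masked likely SNPs. The deposited tables hold counts (reads, T>C reads, T>C conversions and covered T positions) for each miRNA. The authors also give CPM, which equals reads per 1000000 of the library total, and the T>C conversion rate as a fraction of covered T positions, given here in percent. No library was left out.

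Read counts were tested with edgeR 4.0.16 in R 4.3.3 (TMM factors, quasi-likelihood test, 3 conditions in one fit) over the 537 miRNAs passing filterByExpr. T>C conversions were tested likewise with the log of covered T positions (at least 1) as offset. Adjustment was by Benjamini-Hochberg over these 537, with a threshold of 0.05. The SE is the log2 fold change divided by the square root of F, and approximate 95% intervals are 1.96 SE wide on each side. Single values were compared by exact permutation in Python 3.11.15 with scipy 1.17.1. Figures were drawn with matplotlib 3.10.9. DESeq2 1.42.0 served as an alternative. The tests of PlaB against DMSO were run on simulated counts with known fold changes, a common spread and conversion rates at the DMSO level. Low Control rates and a spread differing between miRNAs were not simulated.

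The members and lists were chosen with earlier results of these data known. The named miRNAs are the 3 members, miR-222-5p, the extremes of the lncRNA intron list and the 3 miRNAs most like each guide in either measure. miR-122-5p was looked up as the marker of this cell line, and miR-130a-3p was named after its value was seen.

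The methods state that each experiment held the 3 conditions, so equal replicate numbers mark 1 experiment. Deviations of log2 CPM from the condition mean correlated between libraries of the same number with r of 0.0114 to 0.353, against medians of -0.094 to -0.045 for different numbers. For T>C rates the range was -0.13 to 0.26.

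Depth was 1522210 to 3880241 reads per library. miR-221-5p had 94 to 355 reads per library, miR-221-3p 1424 to 4301 and miR-222-3p 3062 to 7094. A count of 0 is taken to allow 3 conversions. Wilson intervals, counting intervals and limits cover counting error only, since PCR copies were not told apart. Those of conversions treat each conversion as independent, although a read can carry several. In DMSO miR-221-5p had 108 conversions on 80 reads, so such intervals may be too narrow. Exact tests draw their p-values from the 4 libraries of each condition. edgeR's test shares its estimate of spread between miRNAs, so its p-values do not measure the spread of a single miRNA between the 4 experiments.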

Additional observations from a re-analysis of the deposited data

Results flagged for a closer look

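In 3 of 18 sets of 4 library values, 1 library stood apart from the other 3 by Dixon's test, which chance gives for about 1 in 20 sets without ties. The T>C conversion rate of miR-221-5p in DMSO experiment 3 was 3.21%, against 1.60% for the next highest library. In Control experiment 2 the rate of miR-221-5p was 0.0403%, from 1 conversion, against 0 in the other Control libraries, and with 3 values tied at 0 any single conversion meets the criterion. The reads of miR-221-3p in PlaB experiment 2 were 1102 CPM, against 999 CPM for the next highest. Without DMSO replicate 3 the decrease of miR-221-5p in PlaB had an adjusted p of 0.0357 in edgeR's test and a log2 fold change of -3.15.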

How the results depend on the processing

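The number of T>C conversions limits these results: miR-221-3p had 22, 116 and 27 in Control, DMSO and PlaB, and miR-221-5p had 1, 108 and 6. The T>C rise of miR-221-5p and miR-222-3p in DMSO passed the threshold under every alternative that gave a value. miR-221-5p has no value where only miRNAs over 100 CPM in all libraries or with enough T>C conversions were tested. Unless stated, the cause of a change was not tested.

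With the replicate block, which pairs libraries of the same experiment, the T>C call of miR-221-3p in DMSO was lost (log2 value 1.85), 60 miRNAs in place of 33 were called in reads for DMSO against Control, and 7 in place of 0 for PlaB against DMSO. Compared within experiments, the 5p to 3p ratios of miR-221 kept log2 differences of -0.95 and -0.90 against Control but had p = 0.125 by exact sign flips, the smallest for 4 pairs. The block changed no other call of a member.

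Without DMSO replicates 1 and 2, fewer libraries were compared. Calls were lost for reads of miR-221-5p in DMSO (-0.89), for T>C of miR-221-3p in DMSO (1.19), and for T>C in PlaB against DMSO of miR-221-5p (-3.83) and miR-222-3p (-1.54). The counts of calls were 17 in reads for DMSO against Control and 37 in place of 59 for T>C in PlaB against DMSO. With only miRNAs over 100 CPM, where fewer miRNAs were tested, reads gave 8, 1 and 6 calls for DMSO against Control, PlaB against DMSO and PlaB against Control. In reads for PlaB against DMSO, 1 miRNA was called without TMM factors and 6 by DESeq2. Filtering on T>C conversions gave 86 calls in place of 175 for DMSO and 74 in place of 113 for PlaB against Control, and brought miR-222-3p (0.91) past the threshold in PlaB against Control. DESeq2 did so for miR-221-5p (3.27).

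Values near 0 changed sign. For reads of miR-221-5p in PlaB against DMSO these were -0.0020 (RLE factors), -0.036 (no TMM factors), -0.0047 (DESeq2) and -0.0030 (only 8 libraries). For reads of miR-222-3p in PlaB against Control they were -0.0095 (RLE factors), -0.052 (no TMM factors), -0.0095 (DESeq2), -0.038 (over 100 CPM), -0.015 (no filter) and -0.0014 (without DMSO replicates 1 and 2).

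Leaving out 1 library at a time, read values ranged from -0.86 to -0.69 for miR-221-5p and -0.15 to 0.0092 for miR-222-3p in DMSO against Control, where 21 to 42 miRNAs were called. They ranged from -0.15 to 0.0037 for miR-221-3p and -0.13 to 0.12 for miR-221-5p in PlaB against DMSO, and from -0.89 to -0.63 for miR-221-5p and -0.079 to 0.077 for miR-222-3p in PlaB against Control. T>C values ranged from 1.38 to 2.50 for miR-221-3p in DMSO against Control and from 1.93 to 4.18 for miR-221-5p in PlaB against Control, which passed the threshold without Control replicate 2 (edgeR adjusted p = 0.0446). The log2 5p to 3p ratio ranged from -1.03 to -0.84 in DMSO and -1.05 to -0.79 in PlaB against Control, where 3 against 4 libraries cannot give an exact p below 0.0571, and from -0.10 to 0.16 in PlaB against DMSO. Leaving out each DMSO library for the strand ratios in DMSO was chosen after seeing the data, and gave 12.5 to 23.5 for miR-221 and 4.29 to 24.1 for miR-222.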
